A study of Mus musculus with 2 samples.

Results

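The cytosolic ribosomal protein genes, which encode the protein subunits of the ribosome, were described in splenic dendritic cells (DCs, the white blood cells that present antigen to T cells). Cells were cultured with IL-27, a cytokine of the IL-12 family, in 1 sample and with vehicle in the other. Both samples came from wild-type C57BL/6 mice, 8 weeks old, whose spleen cells were sorted by flow cytometry, and each was read on 1 array, so no difference below has a replicate check and no p-value or SD over samples can be given. Culture time is labelled "ON" only, and how many mice or cultures were pooled is not stated in the labels. Members were the genes whose symbol starts with Rpl or Rps followed by a digit or p, leaving out the Rps6k kinases and the numbered pseudogenes. Each needed a probe set annotated to that gene alone, and a gene with several was represented by the one with the highest mean level. This gave 62 of 19935 genes, of which 24 carry small subunit symbols and 38 large subunit symbols. Of these, 53 belong to the canonical subunits and 9 are paralogs, retrogenes or other matches of the symbol rule.

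The ribosome is built from a small subunit, which reads the messenger RNA, and a large subunit, which joins amino acids, and nearly all canonical proteins are needed in equal numbers. Their mRNAs begin with a run of pyrimidines at the cap, the TOP motif, through which mTOR signalling controls how well they are translated largely without a change in mRNA level. An array of total RNA measures mRNA level and not translation.

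Start regions are shown for the canonical members with a listed sequence at both ends of the range of differences, Rpl12, Rps9 and Rpl14 at the low end and Rps6, Rpl41 and Rpl7a at the high end, and for the paralogs Rps27l and Rpl7l1. Each line runs in the direction of transcription over 125 bases, of which 100 lie before and 25 after the first start that RefSeq lists (build GRCm38.p6). Capitals mark runs of at least 6 pyrimidines that begin with C and lie within 25 bases of the start, and the ETS-type motif CCGGAAG on either strand.
Rpl12: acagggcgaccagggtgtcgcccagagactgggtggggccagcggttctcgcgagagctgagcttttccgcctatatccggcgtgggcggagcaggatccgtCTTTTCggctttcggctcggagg
Rps9: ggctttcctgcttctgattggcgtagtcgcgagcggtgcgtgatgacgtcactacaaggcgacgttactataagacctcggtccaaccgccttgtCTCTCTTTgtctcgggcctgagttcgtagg
Rpl14: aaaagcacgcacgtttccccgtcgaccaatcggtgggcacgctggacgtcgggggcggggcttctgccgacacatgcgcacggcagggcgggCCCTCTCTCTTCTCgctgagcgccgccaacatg
Rps6: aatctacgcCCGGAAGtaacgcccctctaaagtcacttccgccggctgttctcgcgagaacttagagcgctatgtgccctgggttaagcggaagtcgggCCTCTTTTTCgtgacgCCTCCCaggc
Rpl41: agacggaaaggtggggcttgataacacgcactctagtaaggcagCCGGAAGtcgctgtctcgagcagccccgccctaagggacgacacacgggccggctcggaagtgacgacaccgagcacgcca
Rpl7a: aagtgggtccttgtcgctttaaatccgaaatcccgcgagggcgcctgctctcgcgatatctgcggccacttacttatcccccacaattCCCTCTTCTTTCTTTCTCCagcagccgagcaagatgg
Rps27l: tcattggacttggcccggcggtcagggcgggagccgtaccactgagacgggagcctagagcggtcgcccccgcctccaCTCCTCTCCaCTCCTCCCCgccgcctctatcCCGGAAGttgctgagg
Rpl7l1: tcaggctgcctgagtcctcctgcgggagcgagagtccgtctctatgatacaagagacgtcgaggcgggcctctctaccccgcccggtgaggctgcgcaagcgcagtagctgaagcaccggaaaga
These lie at chr2:32961612-32961736 (plus strand) for Rpl12, chr7:3703941-3704065 (plus strand) for Rps9 and chr9:120571417-120571541 (plus strand) for Rpl14. Rps6 is at chr4:86857343-86857467 (minus strand), Rpl41 at chr10:128549144-128549268 (minus strand) and Rpl7a at chr2:26910707-26910831 (plus strand). The paralogs are at chr9:66945986-66946110 (plus strand) for Rps27l and chr17:46782632-46782756 (minus strand) for Rpl7l1.

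The pyrimidine run was present in 29 of the 50 members with a RefSeq start region (58.0%), against 35.0% of 27025 start regions of all genes. Of the canonical genes shown, Rpl12, Rps9 and Rpl14 at the low end carried it. At the high end Rps6 and Rpl7a carried it and Rpl41 did not. Of the paralogs shown, Rps27l carried it and Rpl7l1 did not. Canonical members with the run had a median log2 difference (IL-27 minus vehicle) of -0.15 (25 genes), and those without it -0.16 (17 genes). The motif CCGGAAG was searched on both strands of the 300 listed bases and was found in 34.0% of member regions against 9.12% of all. Canonical members with it had a median of -0.12 (15 genes), and those without it -0.24 (27 genes). The motif AAGATGGC, searched on both strands, was in 2 of the 50 member regions and in 2.88% of all. TATAAA, searched on the strand shown, was in 5 of the 50 and in 8.88% of all. A match describes letters only. RefSeq starts can lie some bases from the start used in these cells.

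Ribosomal protein genes stayed close to equal on both arrays. Their median log2 difference was -0.14 as deposited, with quartiles of -0.29 and -0.03, and it turned to 0.06 once the trend of the difference with level was removed. Over all genes the median was 0.04, with quartiles of -0.44 and 0.27. Of the 62 members, 51 had a difference below 0, against 46.6% of all genes, and 11 had one above 0. Among the other genes with a mean log2 intensity of at least 10 the share below 0 was 70.9%, against 36 of the 41 such members. After trend removal 25 members were below 0 and 37 above, and the median over all genes was -0.0028. The share of all genes below 0 is not given for that setting. A gene was counted as lower or higher at a 2-fold difference if its higher value reached the median intensity of all probe sets, 96.2, which 59 members reached. By that rule 1 member, Rpl12, was lower, against a background of 7.36% of all genes, and 0 were higher, against 0.848%. At 1.5-fold, 3 members were lower (background 18.8%), namely Rpl12, Rps9 and Rpl14, and 0 were higher (3.28%).

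**Figure D1:**
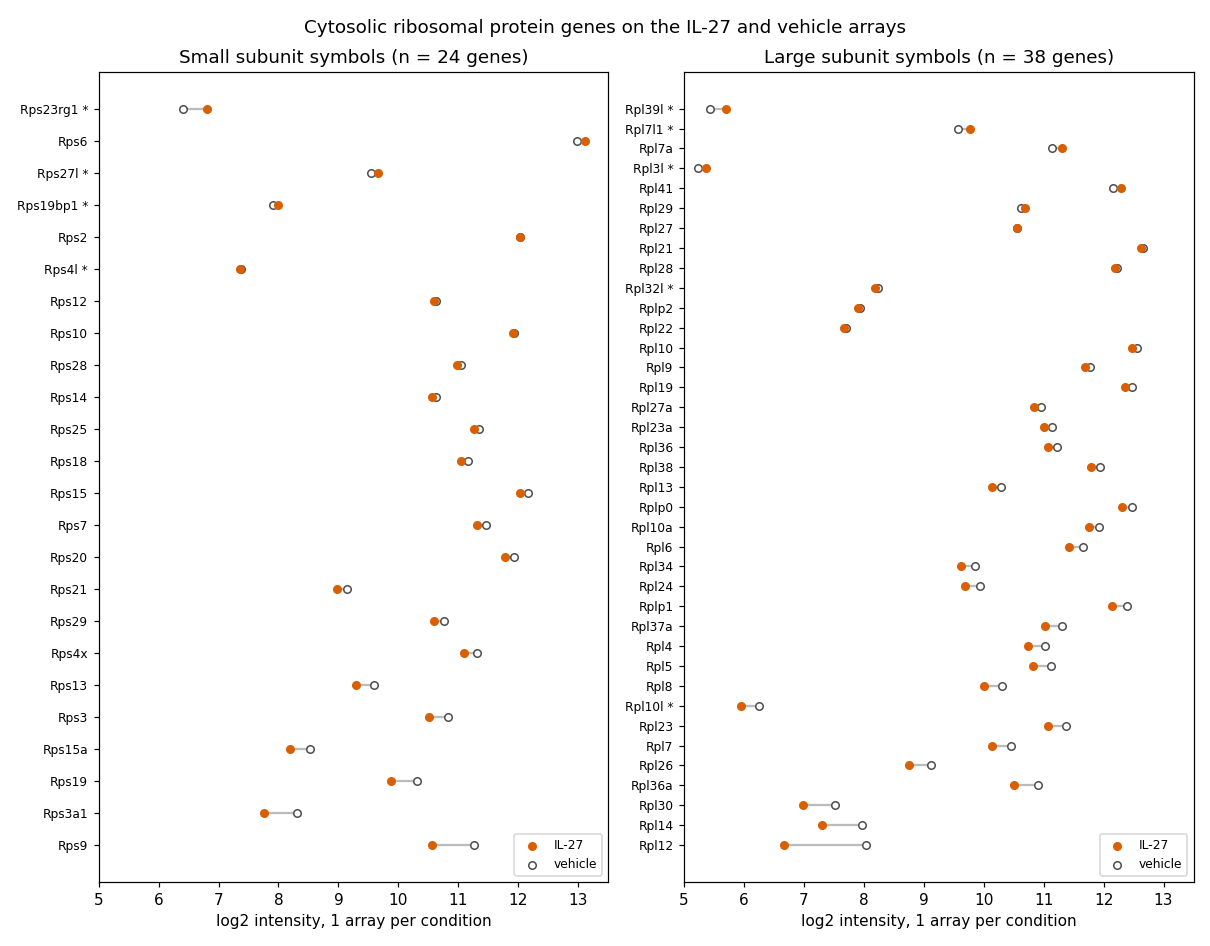
Log2 intensity of each of the 62 members on the IL-27 array (filled) and the vehicle array (open), in panels for small and large subunit symbols, with genes sorted by their difference and an asterisk marking the 9 non-canonical matches. Most pairs of points nearly coincide, and the widest gap is that of Rpl12, at an intensity of 102 with IL-27 and 264 with vehicle.

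The spread among the bright members was narrow for their level. Among the 41 members with a mean log2 intensity of at least 10, the differences had an interquartile range of 0.19. The other 694 genes at that level had an interquartile range of 0.70. Of those other genes 10.4% were lower by the 2-fold rule and 2.16% were higher, whereas none of the 41 members passed it in either direction. At 1.5-fold, Rps9 was the single member past the rule among the 41, against 26.1% of the other genes lower and 6.77% higher. The 21 members with a mean log2 intensity below 10 had a wider interquartile range of 0.41.

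Because differences depended on level, each member was also set against the 200 other genes nearest to it in mean intensity. The median over members of these level-matched medians was -0.28, and members lay above their own by a median of 0.10. Matching was coarse at the top of the level range. Rplp0, Rpl19, Rpl10, Rpl21 and Rps6, at mean log2 intensities from 12.39 to 13.05, all had the same level-matched median of -0.15. The difference exceeded the level-matched median in 46 of 62 members, against 50.0% of all genes and 51.6% of the other bright genes. It lay within the level-matched quartiles in 46 of 62, against 49.6% of all genes and 51.9% of the other bright genes, above them in 13 and below them in 3, which were Rpl12, Rps9 and Rpl10l. Members with a mean log2 intensity of at least 10 lay within them in 36 of 41 cases. Those below 10 did so in 10 of 21, near the share of all genes, with 9 above the upper quartile. On an array of 1 sample each, fewer cells of a type and less RNA per cell cannot be told apart.

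**Figure D2:**
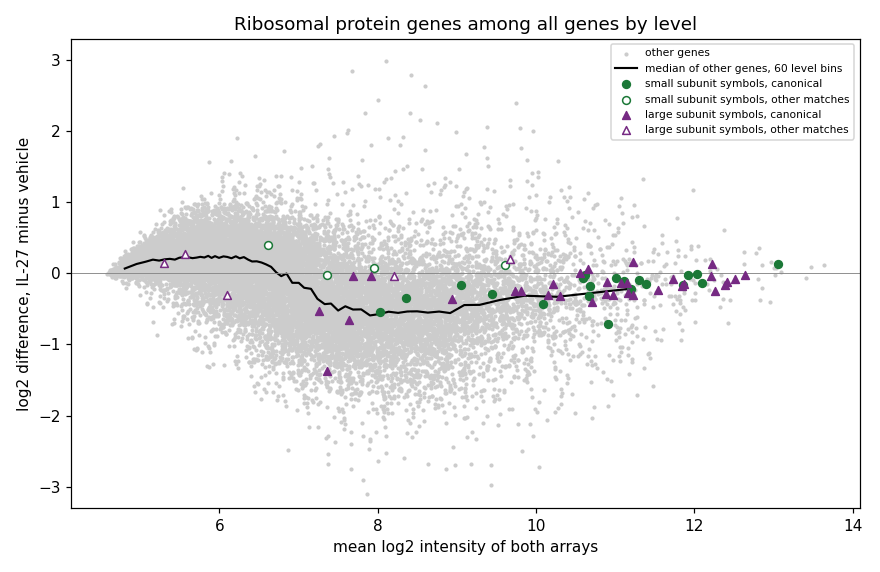
Log2 difference (IL-27 minus vehicle) against mean log2 intensity of both arrays, with members coloured by subunit, other genes in grey and a black line for the median of other genes in 60 level bins. The 41 members at or above a mean of 10 form a thin band with a median of -0.14, inside the wide cloud of other genes.

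Small and large subunit genes had nearly equal medians as deposited. The 24 small subunit genes had a median difference of -0.12 and the 38 large subunit genes -0.15, a gap of 0.03. With the level trend removed the medians were 0.10 and 0.01 and the gap was 0.09. For canonical members alone the medians as deposited were -0.15 (20 small) and -0.16 (33 large), and the gap was 0.01. With the level trend removed the canonical medians were 0.0922 (small) and 0.0054 (large), so the small gap held only as deposited. Relative to genes of like level, 21 of 24 small subunit genes and 25 of 38 large subunit genes lay above the level-matched median. Of canonical members, 17 of 20 small and 22 of 33 large did.

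Several small subunit genes lay nearly level between arrays. Rps6, the substrate through which kinases downstream of mTOR are commonly followed, had an intensity of 8884 with IL-27 and 8092 with vehicle, a log2 difference of 0.13. Its 8 probe sets ranged from -0.02 to 0.27. Rps2, a protein near the entry of the mRNA channel, had 4163 with IL-27 and 4190 with vehicle. The 3 probe sets of Rps2 ranged from -0.22 to -0.01. Rps12 had 1554 with IL-27 and 1578 with vehicle, and its 13 probe sets ranged from -0.02 to 0.25. These genes differed by at most 0.13 on the log2 scale by their brightest probe set.

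Other small subunit genes were dimmer on the IL-27 array without reaching 2-fold. Rps3, which lines the mRNA entry channel, had 1456 with IL-27 and 1818 with vehicle, a difference of -0.32. Rps19, the gene most often mutated in Diamond-Blackfan anaemia in humans, had 941 with IL-27 and 1269 with vehicle, a difference of -0.43. Rps15a had 292 with IL-27 and 370 with vehicle. Rps3a1 had 217 with IL-27 and 316 with vehicle. All 4 lay within the quartiles of their level-matched genes, and with the level trend removed Rps19 had -0.10, Rps3 -0.06, Rps3a1 -0.02 and Rps15a 0.18.

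Rps9, a protein of the small subunit body, was the lowest small subunit gene, and its probe sets disagreed. Its brightest probe set (10549588) had 1504 with IL-27 and 2468 with vehicle, a difference of -0.71, which is 1.64-fold lower. The other (10569069) had 1676 with IL-27 and 1877 with vehicle, a difference of -0.16, so the 1.5-fold call of Rps9 rests on 1 probe set. Rps21 and Rps15 also had probe sets that differed, from -0.50 to -0.17 and from -0.37 to -0.13. The remaining canonical small subunit genes were Rps4x, Rps7, Rps10, Rps13, Rps14, Rps18, Rps20, Rps25, Rps28 and Rps29, and their differences lay between -0.29 and -0.03.

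Among large subunit genes, Rpl12 (probe set 10471550) differed most. Rpl12, a protein at the base of the stalk where translation factors bind, had 102 with IL-27 and 264 with vehicle, a log2 difference of -1.37. The IL-27 value lay below 130, the 95th percentile there of 1015 olfactory receptor genes that DCs are not expected to express. Against that limit Rpl12 was at least 2.03-fold lower. Its difference was -1.03 with the level trend removed. This call rests on 1 single-gene probe set and was not repeated by the others that list Rpl12. The 8 probe sets that list Rpl12 with another gene had differences from -0.84 to -0.22, with a median of -0.25, and none reached 2-fold. The lowest of them (10415640) was also dim, at 158 with IL-27 and 282 with vehicle. The others were bright, between 3727 and 5018 with IL-27 and between 4388 and 5966 with vehicle, and lay between -0.27 and -0.22. How much of a shared probe set's signal comes from Rpl12 cannot be told apart from that of the other gene it lists.

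The other low members of the large subunit were mostly dim. Rpl14 had 158 with IL-27 and 250 with vehicle (-0.66, or -0.21 with the trend removed). Rpl30, whose protein binds its own transcript in yeast, had 127 with IL-27, within the olfactory range, and 184 with vehicle. Rpl36a had 1448 with IL-27 and 1913 with vehicle (-0.40), and its probe sets spanned -0.40 to -0.35. Rpl26, a protein that also binds p53 mRNA, had 432 with IL-27 and 555 with vehicle (-0.36, or 0.12 with the trend removed). Rpl7 had 1128 with IL-27 and 1404 with vehicle (-0.32), with 4 probe sets from -0.33 to -0.23.

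Rplp0, Rplp1 and Rplp2, which form the stalk that recruits elongation factors, did not pass either rule of size. Rplp0, which anchors the stalk, had 5080 with IL-27 and 5679 with vehicle (-0.16). Rplp1 had 4513 with IL-27 and 5372 with vehicle (-0.25). Rplp2, which pairs with Rplp1, had 238 with IL-27 and 245 with vehicle (-0.04). With the level trend removed Rplp2 had 0.46 and Rplp0 and Rplp1 had -0.10 and -0.18.

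Other large subunit genes with known roles, in p53 control, late assembly or contact with the small subunit, did not reach 1.5-fold. Rpl5, which carries the small rRNA of the large subunit and can block Mdm2, had 1817 with IL-27 and 2239 with vehicle (-0.30), with 5 probe sets from -0.34 to -0.30. Its partner Rpl11, and also Rpl13a and Rps27a, had no probe set annotated to them alone. Rpl10, which joins late in maturation of the large subunit, had 5702 with IL-27 and 6016 with vehicle (-0.08). Rpl24, which forms a bridge to the small subunit, had 823 with IL-27 and 976 with vehicle (-0.25). Rpl22, needed for the development of αβ T cells in mice, had 203 with IL-27 and 209 with vehicle (-0.04, or 0.42 with the trend removed).

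A few canonical large subunit genes were brighter on the IL-27 array, none of them by 1.5-fold. Rpl7a had 2530 with IL-27 and 2268 with vehicle (0.16). Its 3 probe sets, of very different brightness, gave 0.14 to 0.18. Rpl41, the smallest ribosomal protein, had 5025 with IL-27 and 4577 with vehicle (0.13), and its 3 probe sets gave the same value to within 0.0006. Rpl29 had 1656 with IL-27 and 1580 with vehicle (0.07), and Rpl27 had 1506 with IL-27 and 1499 with vehicle (0.01). These 4, with Rps6, were the 5 canonical members of 53 above 0. The remaining canonical large subunit genes lay between -0.31 and -0.03.

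Members that are not canonical subunits lay higher as a group, with a median of 0.11 over 9 genes against -0.16 over the 53 canonical members. With median centring the values were 0.01 and -0.26, and with the level trend removed 0.33 and 0.05. Of the 9, 3 were above the level minimum on neither array. Rps27l, a paralog of Rps27 that is induced by p53, had 809 with IL-27 and 749 with vehicle (0.11, against a level-matched median of -0.39). Rpl7l1, a paralog of Rpl7, had 872 with IL-27 and 760 with vehicle (0.20, against -0.32). Rps19bp1, which encodes a binding partner of Rps19 and no subunit, had 254 with IL-27 and 241 with vehicle (0.07, against -0.56). None of these passed a rule of size.

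The other non-canonical matches were dim or divided. Rpl32l had 293 with IL-27 and 300 with vehicle (-0.04). Rps4l, a paralog of Rps4x, had 164 with IL-27 and 165 with vehicle by its brighter probe set and -0.47 by the other. Rps23rg1, a retrogene of Rps23, had 112 with IL-27, within the olfactory range, and 85.2 with vehicle (0.39). Rpl3l, the muscle paralog of Rpl3, had 41.3 with IL-27 and 37.5 with vehicle. Rpl10l, the testis paralog of Rpl10, had 61.8 with IL-27 and 76.4 with vehicle. Rpl39l, the testis paralog of Rpl39, had 52.2 with IL-27 and 43.3 with vehicle. On each array these 3 were inside the olfactory range, so no expression could be told for them.

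Of the members, 38 had several single-gene probe sets. Over these 38 the pooled SD of the difference within genes was 0.07, a spread that is technical and says nothing on replicate cultures. Across the same genes, by their brightest probe set, the SD was 0.16. The 38 genes had a median range of 0.09 between their probe sets, and the widest was the 0.55 of Rps9. In 31 of the 38 all probe sets had a difference below 0, in 3 (Rpl27, Rpl41 and Rpl7a) all were above 0, and in 4 they fell on both sides. All 213 single-gene probe sets of members had a median of -0.13, with 177 below 0 and 36 above. A further 239 probe sets list several genes with a ribosomal protein among them, and had a median of -0.14, from -2.10 to 0.26. Of those, 1 passed 2-fold. Ribosomal protein genes have many near-identical copies in the genome and probe sets of 1 gene can share probes, so probe sets are not independent readings and single members are uncertain to that extent.

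**Figure D3:**
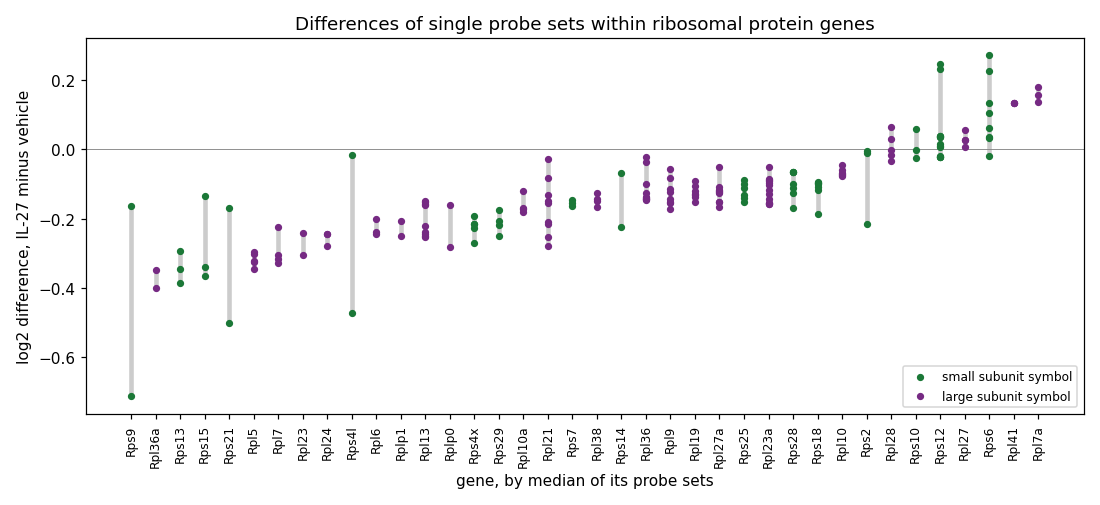
Log2 difference (IL-27 minus vehicle) of every single-gene probe set of the 38 members that have more than 1, with 1 point per probe set, a grey bar for the range and genes sorted by their median. Most bars are short, with a median length of 0.09, while Rps9 spans 0.55.

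The number of probe sets and the level went along with the size of the difference. Canonical members with 1 probe set had a median of -0.31 (16 genes) and a median intensity of 582 with IL-27 and 717 with vehicle. Those with several had -0.13 (37 genes), at 2187 with IL-27 and 2540 with vehicle. Against genes of like level the medians were 0.03 and 0.12. Genes whose RefSeq span holds a snoRNA gene, a frequent arrangement in this family, had a median of -0.16 (19 genes), and those with none -0.15 (34 genes).

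Of 79 canonical subunit genes, 24 had no single-gene probe set and are not described. Small subunit genes whose symbol the rule misses are Rpsa and Fau. Rpsa, also known as the laminin receptor, had 1597 with IL-27 and 1898 with vehicle (-0.25). Fau, which is made fused to a ubiquitin-like protein, had 3891 with IL-27 and 4171 with vehicle (-0.10). Both lay inside the range of the members. Rack1, which binds the small subunit, had no such probe set.

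The arrays differed in other respects that are measured facts beside these values. The median intensity over all probe sets was 98.9 with IL-27 and 92.4 with vehicle, and the 75th percentile was 215 with IL-27 and 267 with vehicle. All 8 macrophage markers were lower by the 2-fold rule, against 7.36% of all genes. Their summed intensity was 6040 with IL-27 and 18976 with vehicle. The 5 conventional DC markers summed to 19786 with IL-27 and 22004 with vehicle, mostly from Cd74 (8544 with IL-27 and 8134 with vehicle) and H2-Ab1 (8222 with IL-27 and 8357 with vehicle). Among the dimmer DC markers Flt3 was 2.11-fold lower as deposited, Itgax differed by -0.88 (1829 with IL-27 and 3371 with vehicle) and Zbtb46 by -0.02. B cell markers (3 measured of 4) summed to 497 with IL-27 and 738 with vehicle, a gap that came from Ms4a1 (202 with IL-27 and 435 with vehicle), while Cd79a and Pax5 differed by -0.04 and -0.05. T cell markers (3 of 4) summed to 288 with IL-27 and 207 with vehicle, and all 3 lay within the olfactory range with IL-27, as Cd3d did with vehicle too. Neutrophil markers (4 of 4) summed to 264 with IL-27 and 201 with vehicle, all under the level minimum and within the olfactory range on both arrays. Of the erythroid markers Epor alone was measured, at 82.8 with IL-27, within the olfactory range, and 169 with vehicle. With the trend removed all 8 macrophage markers kept their call, and Flt3, Ms4a1 and Epor had -0.76, -0.58 and -0.96. No value on these arrays was 0. The part of any of these in the ribosomal protein values was not tested.

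Genes that work with the ribosome but lie outside the family varied in spread. As deposited the interquartile range was 0.34 over other genes with a TOP start and 0.56 over initiation factors. It was 0.26 over all 62 members and 0.41 over the 21 members with a mean log2 intensity below 10. Within the level-matched quartiles lay 15 of 17 TOP genes, 13 of 29 initiation factors and 46 of 62 members, against 49.6% of all genes. A high share was not particular to the members. The counts were 44 of 60 ribosome biogenesis factors and 29 of 40 proteasome subunits. They were 40 of 77 mitochondrial ribosomal proteins and 8 of 20 growth signalling genes. By the 2-fold rule 7.36% of all genes were lower and 0.848% higher as deposited. Of 17 measured other translation genes whose mRNAs start with a TOP motif, 0 were lower or higher by that rule. Their median was -0.28 (-0.04 with the trend removed). Eef2, the translocation factor, had 4703 with IL-27 and a difference of -0.09. Tpt1 differed by -0.12. Eef1a1, which delivers aminoacyl-tRNA, differed by -0.40 at 6931 with IL-27. Eif3e, Nap1l1 and Eif4b differed by -0.69, -0.58 and -0.50, and Vim, an intermediate filament gene, by 0.61. Among 29 initiation factors 2 were lower as deposited, Eif3m by 2.19-fold and Eif4g3 by 2.05-fold, and 0 higher, with a median of -0.23 that turned to 0.17 with the trend removed and 0.02 after quantile normalization. These calls depended on the scaling, since with the trend removed, and also after quantile normalization, 0 were lower and 2 higher. No share of all genes is given for these 2 settings, so whether those counts exceed the background cannot be told. With the trend removed Eif3m had -0.61 and Eif4g3 -0.63, both short of 2-fold. By the mean of its 2 probe sets Eif3m had -0.90, also short of 2-fold. Chosen after their values were seen, Eif4ebp1, a repressor of cap-dependent initiation, and Eif2s2, a subunit of the factor that brings the initiator tRNA, differed by 0.82 and 0.80 as deposited and by 1.30 and 1.25 with the trend removed. Likewise Eif6, which keeps free large subunits from joining small ones, differed by 0.57 at 1154 with IL-27.

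**Figure D4:**
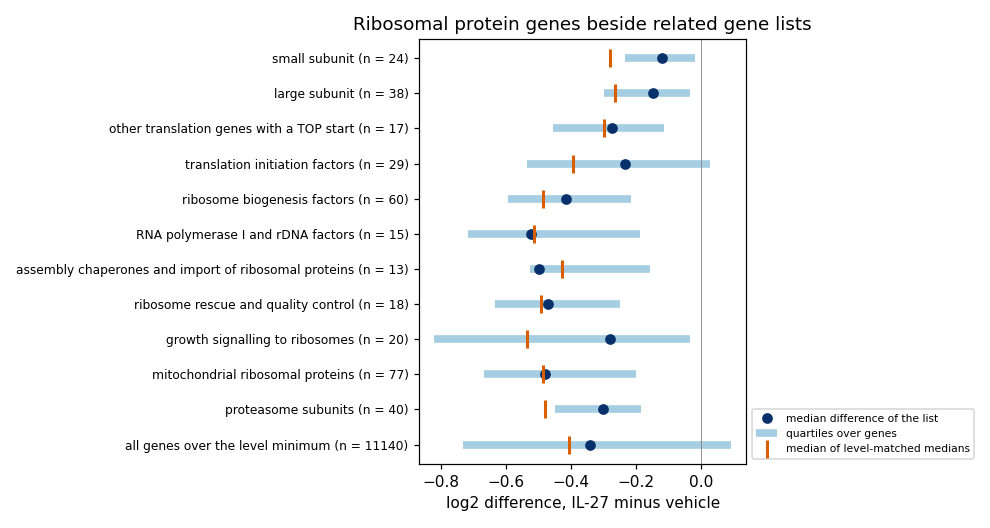
Median log2 difference (dark point) and quartiles over genes (blue bar) of small and large subunit genes, related gene lists and all genes over the level minimum, with an orange tick for the median of each list's level-matched medians. Among the lists drawn, values as deposited, the small and large subunit medians of -0.12 and -0.15 are nearest to 0, an order that does not hold with the level trend removed.

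Genes that build ribosomes had medians below 0 as deposited, near those of genes of like level. The counts below stand against 7.36% of all genes lower and 0.848% higher by the 2-fold rule as deposited. Among genes over the level minimum 1468 of 11140 were lower. No such share is given for counts with the trend removed. Of 60 ribosome biogenesis factors 3 were lower as deposited (Dkc1 at least 2.03-fold, Imp3 2.42-fold and Utp14a at least 1.01-fold) and 0 higher. With the trend removed Dkc1 had -0.93 and Imp3 -0.77, short of 2-fold, and Utp14a, whose IL-27 value lay within the olfactory range, had -1.40. Their median was -0.42, against -0.49 in level-matched genes, and -0.04 with the trend removed. RNA polymerase I and rDNA factors had a median of -0.52 (15 genes), or -0.14 with the trend removed, and Taf1b was lower as deposited, at least 1.38-fold (-1.05, or -0.92 with the trend removed and -0.93 with an offset of 16, both short of 2-fold). Assembly chaperones and importins had -0.50 (13 genes), or -0.0014 with the trend removed, with Ipo9 2.55-fold lower as deposited and -0.82 with the trend removed. Rescue and quality control genes had -0.47 (18 genes), or -0.09 with the trend removed, with Usp21 2.57-fold and Ascc1 at least 2.29-fold lower as deposited. With the trend removed they had -0.87 and -0.92, short of 2-fold. Among 20 growth signalling genes 4 were lower as deposited and 1, Eef2k, with the trend removed, with a median of -0.28, or 0.11 with the trend removed. Myc, the transcription factor that drives ribosome production, was 2.75-fold lower, at 218 with IL-27 and 600.2 with vehicle. Mycl was 2.21-fold, Tsc2 2.05-fold and Eef2k, which inhibits Eef2, at least 1.95-fold lower. The brightest probe set of Eef2k had -1.64 and the mean of its 2 probe sets -1.21. With the trend removed Myc, Mycl and Tsc2 were short of 2-fold, at -0.94, -0.69 and -0.51. Of 12 listed snoRNA host genes 3 were measured. Gas5, a host whose RNA starts with a TOP motif, had 519 with IL-27 and 807 with vehicle (-0.64, or -0.21 with the trend removed). By the mean of its 4 probe sets Gas5 had -0.91. Snhg5 and Snhg15 differed by 0.04 and 0.18, or by -0.02 and 0.68 with the trend removed.

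Mitochondrial ribosomal proteins, encoded by a separate family, had a median of -0.48 (77 genes, interquartile range 0.47), or -0.20 with the trend removed, with 4 lower and 0 higher as deposited and 1 lower and 1 higher with the trend removed. Proteasome subunits had -0.30 (40 genes, interquartile range 0.27), or 0.08 with the trend removed, with 1 lower and 0 higher as deposited and 0 either way with the trend removed. Of all genes 7.36% were lower and 0.848% higher by that rule as deposited, and no such share is given with the trend removed. Over the level-matched median lay 27 of 77 mitochondrial ribosomal protein genes and 25 of 40 proteasome genes, against the 46 of 62 cytosolic ribosomal protein genes. With 1 array per condition the difference between these families has no test.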

How the data were processed

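Each of 2 samples was read on 1 array. The authors deposited 1 linear intensity per probe set and array for 28815 probe sets, all above 0. The build was mm8, per the submitters' processing notes, and the steps from scan to intensity (background, summarization, normalization) are not given in the sources used. Log2 was taken with no offset. GEO's platform annotation gave 21780 probe sets 1 gene and 1605 several, which were not named, and 5430 are unnamed here. Member symbols matched RefSeq (GRCm38.p6) by gene ID for 62 of 62. Differences are IL-27 minus vehicle. Level-matched values are the median and quartiles over the 200 non-member genes nearest in mean log2 intensity. The level trend was a lowess fit (span 0.3) over all genes. With 1 array per condition no test was made, and precision is limited by the number of arrays. Named were the 10 members with the largest difference in each direction, the non-canonical matches, the stalk genes, 10 members with known roles, and up to 4 genes per list with the largest difference. Further members are given as examples. Members and lists were chosen with earlier results of these data known. Alternatives were quantile normalization, median centring, trend removal, an offset of 16, the mean of probe sets, other level filters, canonical subunits only, means and a 1.5-fold rule. The trend and level-matching steps were run on these data with differences shuffled within level bins and known shifts added to random genes. That check accepted errors larger than the median offsets of the members, so it cannot vouch for offsets of that size. Python 3.11.15, numpy 2.4.6, pandas 2.3.3 and statsmodels 0.14.6 were used.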

Additional observations from a re-analysis of the deposited data

How the results depend on the processing

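The median difference of ribosomal protein genes (-0.14 as deposited) turned to 0.063 with the level trend removed, which subtracts the level-dependent difference by construction, and was -0.020 after quantile normalization, -0.24 with median centring, -0.16 with the mean of probe sets, -0.16 for canonical subunits only and -0.17 as a mean. The small subunit median (-0.12) turned to 0.10 with the trend removed and 0.032 after quantile normalization, and was -0.22, -0.16, -0.15 and -0.14 under the other 4 in that order. The large subunit median (-0.15) turned to 0.014 with the trend removed, and was -0.049, -0.25, -0.16, -0.16 and -0.18 under the other 5. Small minus large (0.03) was 0.088 with the trend removed, 0.081 after quantile normalization, 0.0074 with the mean of probe sets, 0.0082 for canonical subunits only as deposited and 0.043 as a mean. The number of lower members was 1 throughout except 3 under the 1.5-fold rule, and that of higher members 0 throughout. Shares of all genes past these rules are given as deposited only. Centring moved the median of all genes from 0.04 to -0.06. The sign of 28 members changed with the trend removed and of 19 after quantile normalization. The share of all genes that changed sign is not given. The cause of the changes under quantile normalization was not tested. No paired analysis was possible because each condition has 1 array.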
